A study of Mus musculus with 12 samples.

Results

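The 9 genes of the lysosome and of autophagy described here were taken by symbol from the 55385 genes counted in both sexes: Ctsd, Ctsb, Ctsl, Hexa, Lamp1, Lamp2, Tfeb, Map1lc3b and Gabarapl1. Each of the 9 symbols matched 1 Ensembl gene in both count tables. All 9 passed the filter on low counts in each sex.

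The lysosome is the acidic compartment in which cells digest proteins, lipids and sugars, and autophagy is the route that carries cytoplasm and organelles to it inside a double membrane. Hydrolases such as the cathepsins do the digesting, LAMP glycoproteins line the membrane, TFEB is a transcription factor that switches on many genes of this compartment, and proteins of the ATG8 family (LC3 and GABARAP) coat the autophagosome and bind cargo receptors. Satellite cells are the stem cells of skeletal muscle, and in mice autophagy is needed to keep them quiescent and able to activate. The cargo receptor p62, encoded by Sqstm1, also binds KEAP1, the adaptor that presents the transcription factor NRF2 (gene Nfe2l2) for degradation.

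The study asked how KEAP1 and NRF2 act in satellite cells of each sex. RNA came from satellite cells isolated from hindlimb muscle of C57BL/6J mice and frozen at once, 1 library per animal. The groups were 3 females labelled Keap1 knockout (female KO, animals KO166, KO178 and KO188), 3 females labelled Hetz, read as heterozygous (female Het, animals Hetz164, Hetz165 and Hetz181), 3 males labelled knockout (male KO, animals KO240, KO247 and KO255) and 3 male Hetz (male Het, animals Hetz204, Hetz245 and Hetz249). By that reading all 12 animals carried an altered Keap1 allele, and no wild-type library was analysed here. The kind of allele, any Cre driver and the age of the animals are not given in the sources used here.

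Libraries held 13042039 to 19273245 counts. Levels are in CPM, counts per 1000000 counts of the library after scaling by trimmed mean of M values, and changes are log2 ratios of KO over Het. The deposited counts sum all exons of a gene, and Keap1 was not lower in the KO-labelled libraries (6.38 to 12.9 CPM, against 5.35 to 10.1 CPM in Het), so it does not check the labels. The NRF2 target Nqo1 stood at 30.99 to 109.5 CPM in the KO libraries and at 2.14 to 5.71 CPM in the Het libraries. Of the satellite cell markers, Myf5 was at 880.2 to 1951 CPM and Vcam1 at 1244 to 2897 CPM in every library, and Pax7 was low at 10.3 to 29.7 CPM. Removing female Hetz165 changed the number of genes passing in females most, to 1479 against 319 with all 6 female libraries, and named genes that gain a call without it are given beside their results. In bulk RNA, fewer cells of a type and less RNA per cell cannot be told apart.

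Promoter letters are shown because TFEB binds the hexamer CACGTG, most strongly in the longer form GTCACGTG, and NRF2 binds elements with the core TGACNNNGC. Windows of 300 bases, 250 before to 50 after each RefSeq start (build GRCm38.p6), were searched on both strands, and GTCACGTG matches are also CACGTG matches. CACGTG was in 7.15% of 32851 such windows, GTCACGTG in 2.25% and TGACNNNGC in 12.4%. Of the 9 genes, 8 had a RefSeq window, 10 windows in all. The Ctsd window held 2 CACGTG, both as GTCACGTG, one near the upstream end of the window and one 98 bases before the start, and 2 TGACNNNGC, at 62 and 47 bases before it. Ctsl held 1 CACGTG at 236 bases before the start, Hexa 1 TGACNNNGC at 131 bases before it, and Map1lc3b 1 TGACNNNGC at 5 bases after it. Lamp1 held 4 CACGTG within 61 bases of the start, the one at 28 bases before it also as GTCACGTG. No match was found in the windows of Lamp2, Tfeb and Gabarapl1. Capitals mark the matches, each sequence reads 5′ to 3′ on the gene's strand, and the first 3 and the last 2 are stretches of 30 bases.
Ctsd, minus strand, chr7:142388048-142388077: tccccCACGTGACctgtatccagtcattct
Ctsd, minus strand, chr7:142387907-142387936: cgcccgcgtctCACGTGACccgttgagggc
Ctsd, minus strand, chr7:142387870-142387899: gcgggtcagcTGACTCCGCgggactgcggc
Hexa, plus strand, chr9:59539290-59539539: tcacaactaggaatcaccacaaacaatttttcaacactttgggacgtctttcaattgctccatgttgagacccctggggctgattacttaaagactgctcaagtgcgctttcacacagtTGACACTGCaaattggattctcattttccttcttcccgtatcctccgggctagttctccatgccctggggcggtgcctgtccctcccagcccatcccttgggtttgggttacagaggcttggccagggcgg
Lamp1, plus strand, chr8:13158911-13159160: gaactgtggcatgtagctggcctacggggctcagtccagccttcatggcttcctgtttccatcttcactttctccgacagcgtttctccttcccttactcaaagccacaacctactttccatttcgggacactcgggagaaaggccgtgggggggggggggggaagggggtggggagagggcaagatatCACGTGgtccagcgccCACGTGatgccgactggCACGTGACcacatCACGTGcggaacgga
Ctsl, minus strand, chr13:64370739-64370768: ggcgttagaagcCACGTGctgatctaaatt
Map1lc3b, plus strand, chr8:121590432-121590461: gcgagtcaccTGACTCGGCtgcggactgag

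Per kilobase of whole exonic length, Gabarapl1, an ATG8 protein of the GABARAP branch, had the highest level of the 9 genes in every group, at 225.8 ± 13.7 CPM per kb in female KO, 197.9 ± 5.59 in female Het, 224.2 ± 15.7 in male KO and 217.7 ± 17.9 in male Het (SD, n = 3 each). Its libraries did not overlap those of the next gene in any group. Below it, Lamp1, Ctsb, Ctsl, Lamp2 and Map1lc3b lay between 55.1 and 134.9 CPM per kb as group means. Neighbours in this band mostly overlapped. Ctsb and Ctsl were neighbours and overlapped in all 4 groups. Lamp2 and Map1lc3b were neighbours in all 4 groups as well, and overlapped in all but female KO. Ctsd had rank 5 of 9 in female KO, where it overlapped Lamp2, and rank 7 in the other 3 groups, where it overlapped neither neighbour. Hexa had rank 8 in every group, at 25.7 ± 0.775 CPM per kb in female KO, 18.7 ± 3.57 in female Het, 22.2 ± 1.17 in male KO and 15.2 ± 1.69 in male Het. Tfeb was the lowest, at 0.340 to 0.484 CPM per kb as group means, and overlapped no other gene.

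This order divides by the whole exonic length, including bases shared with other gene models, where reads were not counted, and for Ctsd those are 34.4%. Over the remaining bases only, a choice made after the data were seen, Ctsd stood at 120.2 ± 9.18 CPM per kb in female KO, 76.6 ± 8.76 in female Het, 86 ± 6.46 in male KO and 62.6 ± 7.33 in male Het. It then had rank 4 in female KO, overlapping Lamp1, and rank 7 in the other 3 groups, overlapping Lamp2 in female Het and male KO and neither neighbour in male Het. Gabarapl1, Hexa and Tfeb had the same ranks on both scales in all 4 groups. The order within the band between them depended on the length used.

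**Figure D1:**
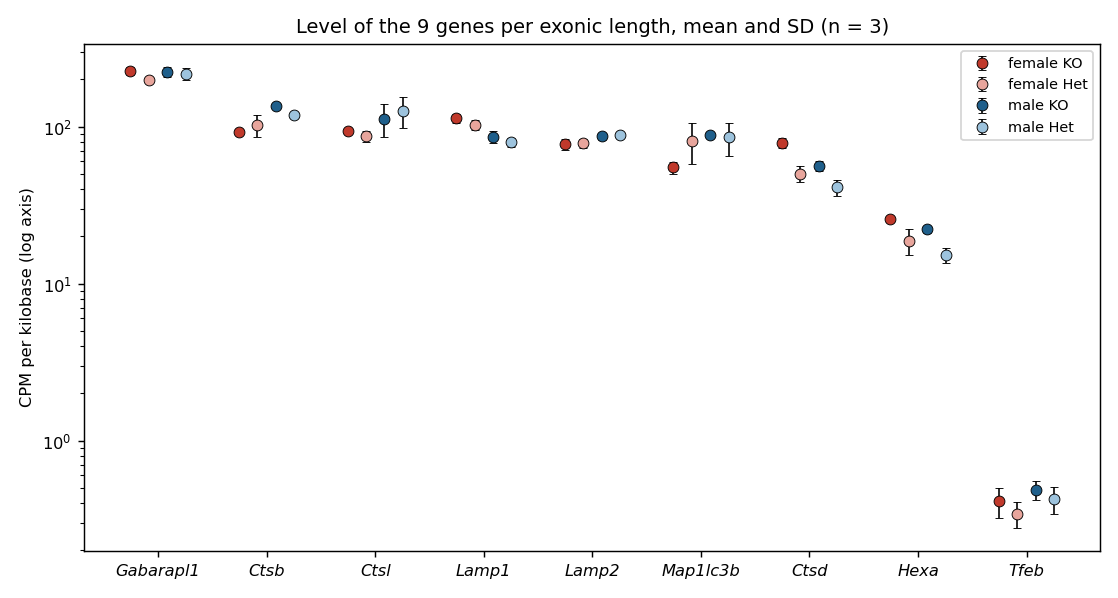
Level of the 9 genes in CPM per kilobase of whole exonic length (log axis), mean and SD of 3 animals per group, ordered by the mean over groups. Gabarapl1 is highest in all 4 groups, Hexa and Tfeb are lowest, and the 5 genes from Ctsb to Map1lc3b share 1 band.

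Among the lysosomal proteases, Ctsd, which encodes the aspartic protease cathepsin D, passed as higher in KO than in Het satellite cells in females and as the average over the sexes (chromosome 7, 142375911 to 142388038, minus strand, GRCm38, ENSMUSG00000007891). Ctsd stood at 170.2, 187.9 and 198.2 CPM in female KO, against 108.3, 133.5 and 112.5 CPM in female Het. The male KO animals had 128.2, 125.9 and 144.2 CPM, against 83.9, 100.3 and 105.6 CPM in male Het. Every KO animal lay above every Het animal of its sex. In females the log2 fold change was 0.65 ± 0.14 (SE), or 1.57-fold, and passed (edgeR quasi-likelihood test, Benjamini-Hochberg adjusted p = 0.0321). In males it was 0.46 ± 0.132, or 1.38-fold, and did not pass (edgeR adjusted p = 0.164, 95% interval 0.18 to 0.75). As the average over the sexes in a fit of all 12 libraries it was 0.55 ± 0.0931, or 1.47-fold, and passed (edgeR adjusted p = 0.00168).

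Exons of the gene model Gm49369 on the same strand cover 34.4% of the exonic bases of Ctsd, and reads in those bases were not counted for either gene. All exonic bases of Gm49369 lie in overlaps, and it was at 0 to 0.0484 CPM, so the values of Ctsd rest on the other 65.6% of its exonic bases. The exact two-sided permutation p for Ctsd was 0.1 in each sex, the smallest that 3 against 3 animals allow, and 0.005 over both sexes, the smallest of 400 arrangements. The female call was lost without female Hetz164 (edgeR adjusted p = 0.13), Hetz181 (0.102), KO166 (0.0769), KO178 (0.122) or KO188 (0.182), and held without Hetz165 (0.00562). The log2 fold change ran from 0.58 to 0.75 in those 6 fits. The average over the sexes passed whichever of the 12 libraries was left out (edgeR adjusted p 0.00065 to 0.00887).

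Hexa, which encodes the alpha subunit of the lysosomal glycosidase hexosaminidase A (chromosome 9, 59539540 to 59565109, plus strand, ENSMUSG00000025232), passed as higher in KO as the average over the sexes and not within either sex. In females Hexa stood at 49.4, 52.1 and 52 CPM in KO, against 35.3, 45.4 and 31.6 CPM in Het. The male KO animals had 45.1, 46.2 and 41.8 CPM, against 29.6, 33.9 and 27.3 CPM in male Het. The groups did not overlap in either sex. The log2 fold change was 0.45 ± 0.158 in females (edgeR adjusted p = 0.173) and 0.55 ± 0.14 in males (edgeR adjusted p = 0.105), which did not pass. The average over the sexes was 0.50 ± 0.103, or 1.42-fold, and passed (edgeR adjusted p = 0.00958). It also passed without each of the 12 libraries (edgeR adjusted p 0.00131 to 0.0378). Within a sex, Hexa passed in females without Hetz165 (edgeR adjusted p = 0.0175), in males without KO255 (0.0493), and in males by DESeq2 (0.0385). Tmem202 on the opposite strand overlaps 12.8% of the exonic bases of Hexa and stood at 0 to 0.399 CPM. By exact two-sided permutation Hexa gave 0.1 in each sex and 0.005 over both, again the smallest possible.

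Ctsb and Ctsl did not pass in any comparison of the genotypes. Ctsb, encoding the cysteine protease cathepsin B (chromosome 14, 63122462 to 63145923), stood at 537.9, 576.7 and 570.9 CPM in female KO, against 541.3, 579.7 and 732.1 CPM in female Het. Ctsb was at 819.8, 825.6 and 802.5 CPM in male KO, against 700.2, 702.7 and 758.2 CPM in male Het. Female groups overlapped, and every male KO animal lay above every male Het animal. Its log2 fold change was -0.14 ± 0.15 in females (edgeR adjusted p = 0.671) and 0.18 ± 0.12 in males (edgeR adjusted p = 0.606).

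Ctsl, encoding the cysteine protease cathepsin L (chromosome 13, 64359337 to 64370890), stood at 613.8, 600.4 and 622.9 CPM in female KO, against 579.7, 604.3 and 512.9 CPM in female Het. Male KO animals stood at 715.3, 567.6 and 908.7 CPM for Ctsl, and male Het animals at 714.3, 704 and 1024 CPM. The groups overlapped in both sexes. Its log2 fold change was 0.11 ± 0.136 in females (95% interval -0.18 to 0.41) and -0.15 ± 0.193 in males (-0.57 to 0.27), with edgeR adjusted p of 0.714 and 0.818. Other gene models overlap 12.8% of the exonic bases of Ctsb (Fdft1, opposite strand, 15.4 to 65.7 CPM) and 26.8% of those of Ctsl (Gm47123, opposite strand, 0 CPM). All exonic bases of Gm47123 lie in overlaps, where reads were not counted, so its 0 CPM does not show its level.

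The membrane glycoprotein genes Lamp1 and Lamp2 did not pass in either sex or as the average. Lamp1 (chromosome 8, 13159161 to 13175338) stood at 286.3, 324.1 and 298.3 CPM in female KO, against 291.4, 280.8 and 253.5 CPM in female Het. Lamp1 was at 233.7, 248.4 and 207.3 CPM in male KO, against 199.1, 225.3 and 214.3 CPM in male Het. Its log2 fold change averaged over the sexes was 0.12 ± 0.0858 (edgeR adjusted p = 0.494, 95% interval -0.057 to 0.30). Lamp2 (X chromosome, 38401357 to 38456454), whose splice form LAMP2A is the receptor of chaperone-mediated autophagy, stood at 691, 808.3 and 728.9 CPM in female KO, against 799.3, 695.8 and 747.9 CPM in female Het. Lamp2 was at 873.7, 831.3 and 788.1 CPM in male KO, against 835.3, 858.1 and 855.5 CPM in male Het. Its average log2 fold change was -0.021 ± 0.0853 (edgeR adjusted p = 0.935, 95% interval -0.20 to 0.16), and gene counts do not separate its splice forms. All 4 pairs of groups overlapped.

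Tfeb (chromosome 17, 47737030 to 47792419), the transcription factor gene, rested on 29 to 58 counts per library. It stood at 2.78, 1.79 and 2.42 CPM in female KO, against 2.03, 2.22 and 1.54 CPM in female Het. Male KO animals had 2.84, 2.34 and 3.06 CPM, against 2.77, 2.53 and 1.87 CPM in male Het animals. The groups overlapped in both sexes. The average log2 fold change of 0.24 ± 0.211 did not pass (edgeR adjusted p = 0.608), and its 95% interval ran from -0.20 to 0.68, so changes of this size were not resolved at this depth.

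Of the ATG8 genes, Map1lc3b, encoding LC3B (chromosome 8, 121590361 to 121598760), stood at 449.3, 416.9 and 376.6 CPM in female KO, against 526.3, 492.1 and 818.1 CPM in female Het. Male KO animals had 635.3, 664.3 and 691.3 CPM, against 566.8, 540.3 and 817.7 CPM in male Het animals. All female KO animals lay below all female Het animals, while the male groups overlapped. In each sex 1 Het library, Hetz181 in females and Hetz249 in males, lay far above the rest of its group. The log2 fold change was -0.56 ± 0.188 in females (edgeR adjusted p = 0.148) and 0.051 ± 0.161 in males (edgeR adjusted p = 0.944), so neither passed. Map1lc3b passed as lower in female KO without Hetz165 (edgeR adjusted p = 0.0326) and with no filter on low counts (0.0167). Without female Hetz181 the female log2 fold change was -0.31 (edgeR adjusted p = 0.444).

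Gabarapl1 (chromosome 6, 129533160 to 129542346) stood at 436.5, 441 and 486.3 CPM in female KO, against 386.3, 408.6 and 400.1 CPM in female Het. Male KO animals stood at 469.8, 414.8 and 469.6 CPM for Gabarapl1, and male Het animals at 428.4, 408.2 and 478.2 CPM. The female groups did not overlap and the male groups did. Its log2 fold change was 0.19 ± 0.131 in females (edgeR adjusted p = 0.483) and 0.046 ± 0.127 in males (edgeR adjusted p = 0.933). The gene model 1700101I11Rik on the opposite strand overlaps 28.3% of its exonic bases and stood at 1.1 to 2.22 CPM.

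**Figure D2:**
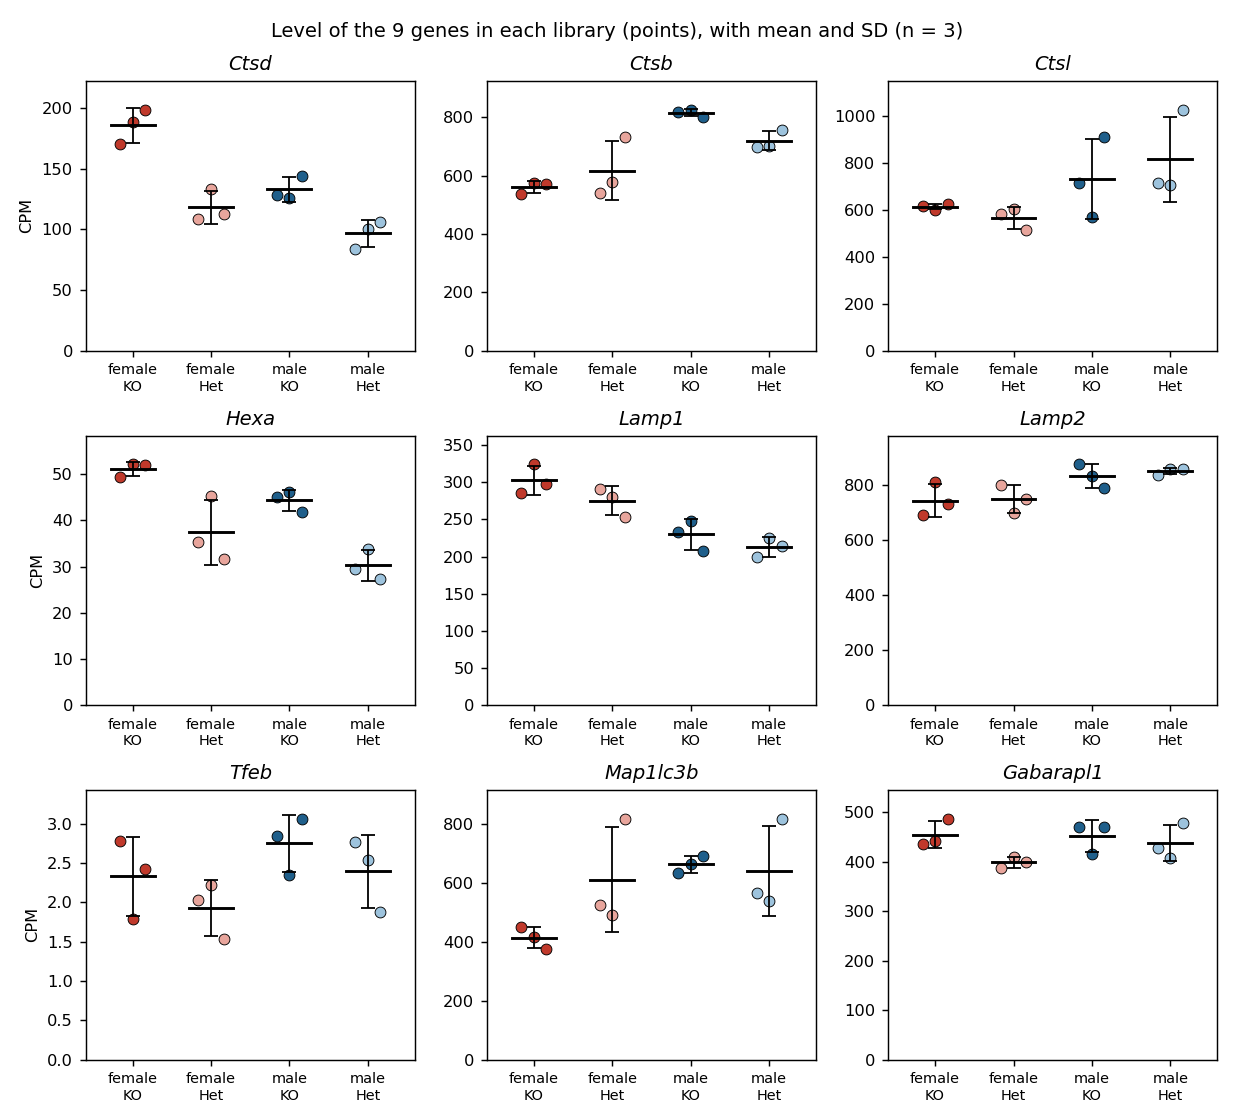
Level in CPM (each axis starting at 0) of the 9 genes in each library, with the mean and SD of 3 animals, KO left of Het within each sex. For Ctsd and Hexa all KO points lie above all Het points of the same sex, and for Map1lc3b 1 Het animal of each sex lies near 818 CPM.

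Counted together, 1 of the 9 genes passed in females, Ctsd, and it was higher in KO. Of all 14036 genes tested in females, 1.29% passed as higher and 0.983% as lower. In males 0 of the 9 passed by edgeR, with 2 at an unadjusted p under 0.05, 1 passing by DESeq2 (Hexa) and 0 by limma voom. The background there was 0.704% higher and 0.157% lower of 13361 genes, with 12.4% at an unadjusted p under 0.05. As the average over the sexes 2 of the 9 passed, Ctsd and Hexa, both higher, where 2.15% of 14772 genes were higher and 1.27% lower. The 9 genes were chosen with earlier results of these data known, so these shares are descriptions. Without regard to the test, KO lay wholly above Het for 3 of the 9 genes in females (Ctsd, Hexa and Gabarapl1) and for 3 in males (Ctsd, Hexa and Ctsb). Of all genes tested, 12.1% did so in females and 9.37% in males. KO lay wholly below Het for 1 of the 9 genes in females, Map1lc3b, and for none (0) in males, beside 10.1% and 7.8% of all genes. The median log2 fold change of the 9 genes was 0.13 in females, 0.11 in males and 0.12 as the average, beside 0.0044, 0.011 and -0.0035 over all genes tested.

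**Figure D3:**
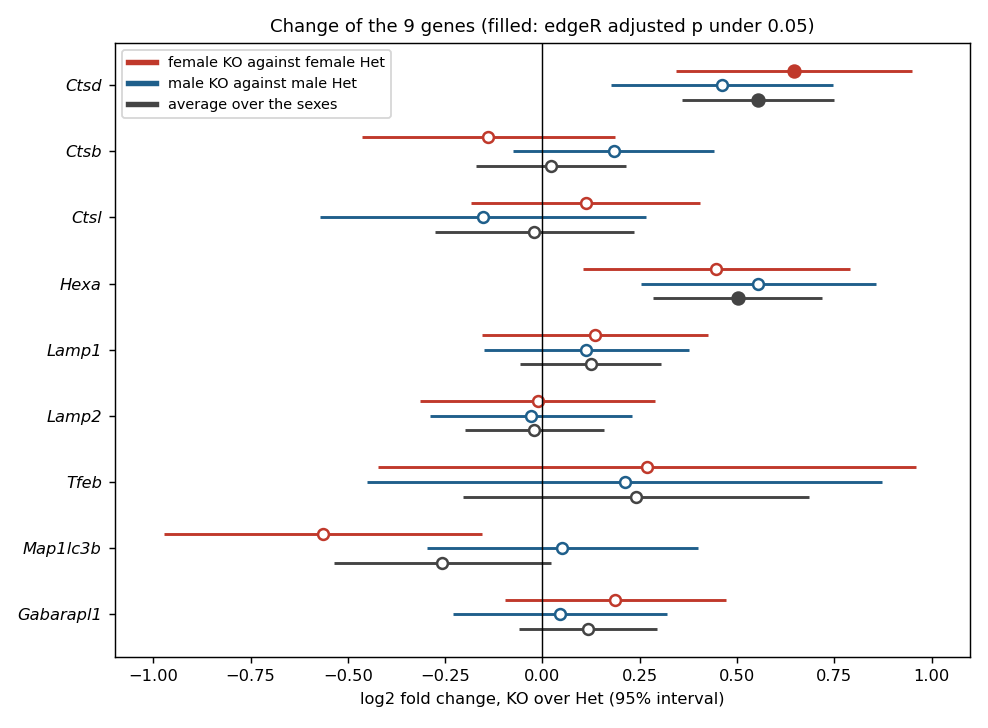
Log2 fold change of KO over Het for the 9 genes with its 95% interval, in females, in males and as the average over the sexes; filled points have an edgeR adjusted p under 0.05. Ctsd is filled in females and as the average, Hexa as the average only, and the female point of Map1lc3b (-0.56) lies below 0 with an interval that does not include 0.

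Whether the change differed between the sexes was tested as the female minus the male change. For 0 of the 9 genes did it pass by edgeR, DESeq2 or limma voom, with 1 at an unadjusted p under 0.05. Over all genes 0.00677% passed by edgeR and 12.4% had an unadjusted p under 0.05. Map1lc3b had the lowest p, with a difference of -0.61 ± 0.264 on the log2 scale (edgeR adjusted p = 0.366, 95% interval -1.17 to -0.055). For Ctsd the difference was 0.19 ± 0.186 (95% interval -0.20 to 0.58) and for Hexa -0.10 ± 0.205 (-0.53 to 0.33). Ctsd passing in females and not in males is therefore not a shown difference between the sexes.

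Between the sexes 5 of the 9 genes differed. Averaged over genotypes, Ctsd and Lamp1 were higher in females than in males, both by 1.31-fold (log2 difference 0.39 ± 0.0929 and 0.38 ± 0.0859, edgeR adjusted p = 0.0051 and 0.00308). Ctsb, Ctsl and Map1lc3b were lower in females, each by 1.3- to 1.31-fold, with log2 differences of -0.38 ± 0.0918, -0.39 ± 0.122 and -0.37 ± 0.132 (edgeR adjusted p = 0.00522, 0.0244 and 0.0435). In this comparison 13.2% of all genes passed as higher and 14.6% as lower in females. Ctsb, Ctsd and Lamp1 passed whichever of the 12 libraries was left out. Map1lc3b lost its call in 9 of those 12 fits and passed only without female Hetz181, male Hetz204 or male Hetz245. Ctsl lost its call in 4 of the 12, those without female Hetz181, female KO178, male Hetz249 or male KO255, and Hexa passed in 1, that without Hetz181. Females and males were counted in separate tables, so sex and any batch of a table cannot be told apart. Markers of other cells also differed by sex. The summed level of 12 myofibre markers was 131.8 to 707.1 CPM in females and 49.8 to 146.5 CPM in males, and that of 10 endothelial markers 56.6 to 95.3 CPM in females and 133.8 to 356.5 CPM in males. Their part in the sex differences of the 9 genes was not tested.

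The 9 genes were then set among all genes of 9 lists that cover the lysosome and autophagy. In females 3 of 187 tested genes passed by edgeR, all higher in KO: Ctsd, Atp6v0a1 and Pink1. That is 1.6%, near the 1.29% of all genes that were higher. None (0) passed as lower, with 10 lower at an unadjusted p under 0.05, 2 lower by DESeq2 and 0 by limma voom. With no filter beyond 1 count 11 of the listed genes passed in females, Map1lc3b and Atg3 among them as lower, beside 1000 genes in all. In the fit of all 12 libraries 5 passed, with Psap and Sort1 added, beside 477 genes in all. In males 1 of 186 passed, Rraga, higher in KO, or 0.538%, where 0.704% of all genes were higher. None (0) was lower there, with 2 lower at an unadjusted p under 0.05 and 0 by DESeq2 or limma voom. With no filter beyond 1 count 4 of the listed genes passed in males (Bcl2, Psap, Retreg1 and Rraga), beside 375 genes in all. The medians over the tested genes of the lists were 0.040 in females and 0.056 in males on the log2 scale.

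List by list, the edgeR calls were single genes and the medians lay between -0.043 and 0.18. In either direction, 17.9% of all genes tested had an unadjusted p under 0.05 in females and 12.4% in males. This is the background for all such counts within a sex. By DESeq2 there were further calls, in females Psap, Atg4d, Becn1 and Sort1, and in males Hexa, Npc2 and Psap. Psap, which encodes the precursor of the saposins, was counted in the list of proteases and inhibitors. Of 16 lysosomal proteases and inhibitors 1 passed in females (median log2 fold change 0.0080) and 0 in males (0.099, with 3 at an unadjusted p under 0.05). Of 33 glycosidases, sulfatases and lipases 0 passed in either sex by edgeR (medians 0.11 in females and 0.18 in males, with 4 genes at an unadjusted p under 0.05 in each). Lysosomal membrane proteins and transporters gave 0 of 24 in females and 0 of 23 in males, with 1 at an unadjusted p under 0.05 in each. V-ATPase subunits, which build the proton pump, gave 1 of 16 in females (median -0.017) and 0 of 16 in males (-0.023, with 3 at an unadjusted p under 0.05). The MiT/TFE factors with nutrient sensing gave 0 of 21 in females, with 5 at an unadjusted p under 0.05, and 1 of 21 in males. For the ATG8 family and its conjugation enzymes it was 0 of 15 in each sex, with 4 at an unadjusted p under 0.05 in females and 2 in males, and medians of -0.043 and 0.023. Autophagy initiation, membrane supply and fusion gave 0 of 30 in each sex, with 3 at an unadjusted p under 0.05 in each. Selective autophagy receptors gave 1 of 19 in females and 0 of 19 in males, with 5 at an unadjusted p under 0.05 in males. Mannose-6-phosphate tagging and sorting gave 0 of 13 in each sex, with 3 at an unadjusted p under 0.05 in females and 2 in males.

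**Figure D4:**
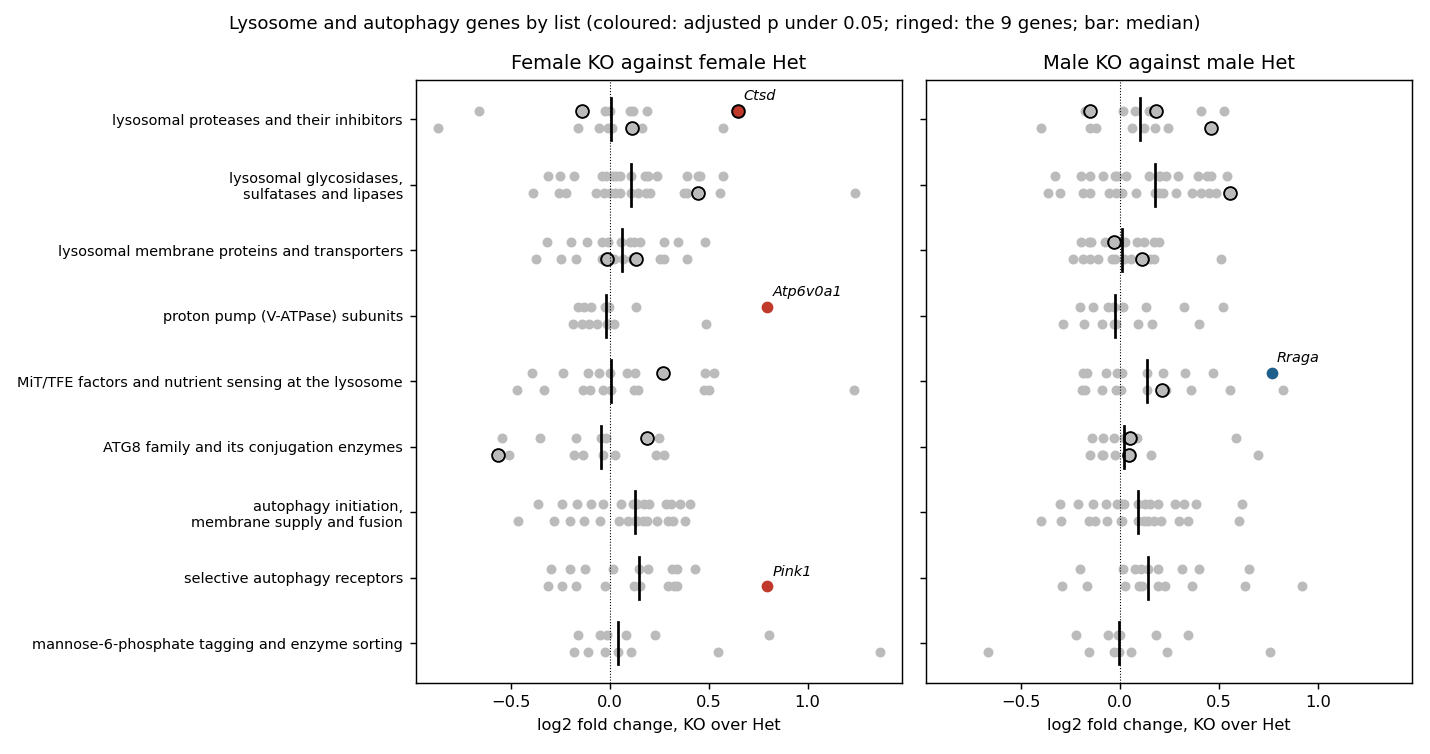
Log2 fold change of KO over Het for every tested gene of the 9 lists, in females (left) and males (right); coloured points passed (edgeR adjusted p under 0.05), rings mark the 9 genes and bars the list medians. The points spread on both sides of 0, and 3 genes are coloured in females and 1 in males.

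Atp6v0a1, an a-subunit of the membrane sector of the V-ATPase, stood at 33.5, 27.5 and 33.9 CPM in female KO, against 15.9, 19.9 and 18.7 CPM in female Het, a 1.74-fold difference that passed (log2 fold change 0.80 ± 0.164, edgeR adjusted p = 0.0242). Atp6v0a1 was at 28.5, 29.5 and 40.5 CPM in male KO, against 20.8, 20.7 and 27.3 CPM in male Het (log2 fold change 0.52 ± 0.183, edgeR adjusted p = 0.264). Neither sex showed overlap of the groups. The other 15 V-ATPase subunits did not pass in females.

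Pink1, the kinase that marks damaged mitochondria for mitophagy, stood at 133, 123.9 and 129 CPM in female KO, against 77.7, 91.8 and 52.3 CPM in female Het (log2 fold change 0.79 ± 0.184, edgeR adjusted p = 0.0443). Pink1 was at 85.8, 85.4 and 121.6 CPM in male KO, against 69.3, 79.7 and 87.2 CPM in male Het (log2 fold change 0.31 ± 0.162, edgeR adjusted p = 0.469). The male groups overlapped and the female groups did not.

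Rraga, a Rag GTPase that brings mTORC1 to the lysosome, stood at 112.3, 144.9 and 127.8 CPM in male KO, against 64.7, 82.1 and 79.8 CPM in male Het, a 1.7-fold difference that passed (log2 fold change 0.77 ± 0.141, edgeR adjusted p = 0.0259). In females Rraga overlapped, at 74.9, 93.5 and 92.5 CPM in KO against 78.1, 75.5 and 91.2 CPM in Het (log2 fold change 0.089 ± 0.143). The female minus male difference for Rraga was -0.67 ± 0.203 and did not pass by edgeR (adjusted p = 0.213), and passed by DESeq2. The differences of Becn1 (-0.58 ± 0.178) and Npc2 (-0.46 ± 0.156) also passed by DESeq2 and not by edgeR (adjusted p = 0.215 and 0.254). By DESeq2 238 genes in all passed for this difference. Rraga lost its call without male Hetz204 (edgeR adjusted p = 0.198), Hetz245 (0.071), Hetz249 (0.155) or KO240 (0.0749). Atp6v0a1 lost its female call without Hetz164, Hetz181, KO166 or KO188 (edgeR adjusted p 0.0597 to 0.139), and Pink1 on leaving out any 1 of the 5 female libraries other than Hetz165 (0.0823 to 0.152).

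In the 5 lists with no edgeR call within a sex, the 2 genes of lowest p were read, Hexa and Sort1 among them. By DESeq2 5 of these 10 genes passed within a sex: Atg4d (adjusted p = 0.033), Becn1 (0.0412) and Sort1 (0.028) in females, and Hexa (0.0385) and Npc2 (0.0498) in males. In females without Hetz165, edgeR called Hexa, Sort1 (adjusted p = 0.0435), Cln6 (0.0302), Cd63 (0.0465), Atg4d (0.0336), Becn1 (0.0161) and Atg3 (0.00768). With no filter beyond 1 count, edgeR called Atg3 (adjusted p = 0.0406), Sort1 (0.0285) and Cln6 (0.0202) in females. Atg4d, a protease that processes ATG8 proteins, was at 19.4 ± 1.63 CPM in female KO and 28.3 ± 2.17 CPM in female Het, and Becn1, the beclin 1 subunit of the lipid kinase complex that starts autophagosomes, at 99.2 ± 2.55 CPM in female KO and 136.4 ± 16.8 CPM in female Het (SD, n = 3 each). For both the female groups did not overlap, and neither passed by edgeR with all 6 female libraries (adjusted p = 0.0922 and 0.105). Other gene models overlap 19.3% of the exonic bases of Atg4d and 43.9% of those of Becn1, and Atg4d (chromosome 9, 21265293 to 21277772) lies close to Keap1 (chromosome 9, 21229730 to 21239361). Any part of this position in the Atg4d values was not tested. Atg3, the E2-like enzyme of ATG8 lipidation, was at 97.5 ± 5.71 CPM in female KO and 138.6 ± 33 CPM in female Het (edgeR adjusted p = 0.147). The male values of these 3 genes overlapped between the genotypes. Cd63, a tetraspanin of late endosomes, was at 1982 ± 129.3 CPM in female KO and 2562 ± 341.7 CPM in female Het (edgeR adjusted p = 0.23). On the other side, Npc2, a cholesterol-binding protein of the lysosomal lumen, was at 122.9 ± 2.17 CPM in male KO and 90.2 ± 5.01 CPM in male Het (edgeR adjusted p = 0.123). Slc17a5, the sialic acid exporter, was at 16.5 ± 2.03 CPM in male KO and 11.6 ± 3.2 CPM in male Het (edgeR adjusted p = 0.358). Wipi1, a phosphoinositide-binding autophagy protein, was at 20.3 ± 3.67 CPM in male KO and 13.4 ± 1.57 CPM in male Het (edgeR adjusted p = 0.203). Cln6, a membrane protein of the endoplasmic reticulum that helps export lysosomal enzymes, was at 2.68 ± 0.775 CPM in female KO and 1.03 ± 0.56 CPM in female Het (edgeR adjusted p = 0.129). Cln6 rested on few counts, 30 to 66 per library in female KO and 9 to 33 in female Het. For these last 5 genes the other sex did not pass by edgeR either. Female log2 fold changes were -0.017 for Npc2, -0.0072 for Slc17a5 and 0.40 for Wipi1. Male ones were -0.16 for Cd63 and 0.054 for Cln6.

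As the average over the sexes 8 of 187 genes passed, all higher in KO, or 4.28%, where 2.15% of all genes tested did. They were Ctsd, Hexa, Atp6v0a1, Pink1, Rraga, Psap, Sort1 and Tfe3. The lists were chosen with earlier results of these data known, so the difference between these shares is not an independent result. None (0) passed as lower, with 7 lower at an unadjusted p under 0.05, 1 by DESeq2 and 0 by limma voom. In either direction, 17% of all genes tested had an unadjusted p under 0.05 as the average. Psap and Tfe3 are outside the rule for naming genes and were chosen after their values were seen. Psap, which encodes prosaposin, the precursor of the saposins that activate sphingolipid hydrolases, stood at 347.7, 433.8 and 445.5 CPM in female KO, against 259.3, 319.4 and 243.7 CPM in female Het. Psap was at 402.8, 389.5 and 406.1 CPM in male KO, against 278.9, 308.3 and 248 CPM in male Het, and the groups overlapped in neither sex. Its average log2 fold change was 0.55 ± 0.0994 (edgeR adjusted p = 0.00348), close in size to that of Ctsd.

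Sort1, encoding the sorting receptor sortilin, which carries prosaposin to the lysosome, stood at 9.78, 9.46 and 14.4 CPM in female KO, against 5.76, 7.16 and 6.25 CPM in female Het. Sort1 was at 9.22, 7.63 and 10.2 CPM in male KO, against 5.07, 5.4 and 5.57 CPM in male Het. Its average log2 fold change was 0.78 ± 0.151 (edgeR adjusted p = 0.00574). Tfe3, a transcription factor of the same family as TFEB, stood at 119.4, 125.6 and 126.8 CPM in female KO, against 85.8, 106.7 and 73.1 CPM in female Het. Tfe3 was at 129.1, 126.8 and 159.3 CPM in male KO, against 101.1, 98 and 101.4 CPM in male Het. Its average log2 fold change was 0.48 ± 0.0996 (edgeR adjusted p = 0.0111). KO and Het overlapped in neither sex for Sort1 and Tfe3. Per kilobase, Tfe3 stood at 13.4 ± 0.431 CPM in female KO, and Tfeb at 0.411 ± 0.0887 CPM there. Mitf, of the same family and also outside the rule for naming genes, had the largest average change of the listed genes. Its average log2 fold change was 1.03 ± 0.289, or 2.04-fold, and did not pass (edgeR adjusted p = 0.0607). As the average it passed by DESeq2, by limma voom and with no filter beyond 1 count. Mitf rested on few counts, 15 to 84 per library.

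Of the 8 genes that passed as the average, 6 passed whichever of the 12 libraries was left out: Ctsd, Hexa, Atp6v0a1, Psap, Sort1 and Tfe3. In females alone the count moved with single libraries. Without female Hetz165, 15 of the 187 genes (8.02%) passed as higher in KO and 9 (4.81%) as lower, where 5.25% of all genes in that fit were higher and 4.99% lower. The higher ones then included Ctsd, Hexa, Psap, Sort1 and Tfe3, and the lower ones Map1lc3b, Atg3, Atg12, Atg4d, Becn1 and Cd63. Without any 1 of the other 5 female libraries, 0 or 1 passed as higher and 0 as lower.

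Sqstm1, which encodes p62 and was read for its link to KEAP1, outside the rule for naming genes, was abundant and did not pass. It stood at 3236, 3554 and 3787 CPM in female KO, against 3163, 3372 and 2945 CPM in female Het. Male KO animals had 4056, 4157 and 4402 CPM, against 5155, 4081 and 5276 CPM in male Het animals. The groups overlapped in both sexes, with log2 fold changes of 0.15 ± 0.149 in females and -0.20 ± 0.145 in males (edgeR adjusted p = 0.63 and 0.646). Mrnip overlaps 17.3% of its exonic bases.

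Likeness to Ctsd was read as the correlation of log2 CPM over the 12 libraries, after subtracting the mean of each sex, among 7951 genes. The 12 points share the genotype groups, so these are descriptions with no test. The most alike were Tmem14c (Pearson r = 0.967, Spearman rho = 0.958), Cc2d2a (0.956, 0.909) and Slc2a1, the glucose transporter GLUT1 (0.955, 0.909). Slc2a1 stood at 384.5 ± 38.1 CPM in female KO and 215.9 ± 6.31 CPM in female Het, and at 382.7 ± 38 CPM in male KO and 268.7 ± 20.3 CPM in male Het. Among the other members, r with Ctsd (rho in brackets) was 0.859 for Hexa (0.692), 0.734 for Gabarapl1 (0.727) and 0.567 for Lamp1 (0.399). It was 0.217 for Ctsl (0.531), 0.0325 for Ctsb (0.203), -0.218 for Lamp2 (-0.308) and -0.45 for Map1lc3b (-0.308). The order of the members thus depended on the measure. Tfeb was below the mean log2 CPM of 3 required here and was not compared.

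Lysosomal genes are abundant in macrophages, so markers of other cells were read beside these results. Of 16 tested leukocyte and macrophage markers 4 passed as lower in female KO (Lyz2, Cd74, H2-Ab1 and Cd14) and 0 as higher, and their summed level was 54.9 to 85.7 CPM in female KO against 136.6 to 188.5 CPM in female Het. The direction was opposite to that of Ctsd in females and the same as that of the female Map1lc3b values. In males the sums overlapped, at 92.9 to 128.1 CPM in KO and 54.1 to 160.1 CPM in Het, with 0 of 9 passing by edgeR and 0 at an unadjusted p under 0.05. Cd74 averaged 22.7 CPM in female KO and 61.5 CPM in female Het. Of the defining markers, read outside the rule for naming genes, the leukocyte-wide gene Ptprc was at 0.227 to 3.26 CPM over all 12 libraries, and the macrophage gene Adgre1 at 0.0562 to 0.956 CPM. Of 12 satellite cell markers 3 passed as lower in female KO (Cd34, Chrdl2 and Spry1) and 1 in male KO (Chrdl2). For both lists the background was 0.983% of all genes tested lower in females and 0.157% in males. Of the 12, 10 had a negative log2 fold change in females (median -0.46) and 6 in males (-0.042). The list summed to 7701 to 9802 CPM in female KO and 11390 to 13050 in female Het, which did not overlap. The male sums overlapped, at 16680 to 18020 in KO and 15070 to 17460 in Het. Sdc4, the most abundant gene of the list, was at 4114 to 5861 CPM in female KO and 6536 to 8137 CPM in female Het.

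Of 6 Schwann and glial markers tested, Ptprz1 passed as lower in female KO, and the sums overlapped in both sexes (154.5 to 183.5 CPM in female KO, 135 to 214.8 in female Het, 216.6 to 341.7 in male KO and 220.5 to 229.3 in male Het). In the other 6 lists 0 genes passed within a sex by edgeR, with at most 5 of a list at an unadjusted p under 0.05. Fibro-adipogenic progenitor markers, led by Gsn, Col3a1 and Col1a1, summed to 4404 to 5182 CPM in female KO, 4675 to 7107 in female Het, 3839 to 4546 in male KO and 2922 to 4560 in male Het. Pericyte and smooth muscle markers, led by Acta2, summed to 572 to 626.3 CPM in female KO, 387 to 653.4 in female Het, 379.9 to 475.1 in male KO and 325.5 to 461.4 in male Het. Sums of endothelial, myofibre and red blood cell markers also overlapped between the genotypes of each sex. Of 10 tested myofibre markers 10 had a positive log2 fold change in females (median 0.93) and 8 in males (0.31). Of 10 endothelial markers 9 were positive in females (median 0.44) and 8 in males (0.13). Red blood cell markers gave 3 of 4 and 4 of 5. Over all genes tested 50.5% were positive in females and 51.7% in males. The medians of the myofibre and endothelial lists had the direction of Ctsd in both sexes. So did those of the Schwann and glial list (0.10 in females and 0.33 in males) and the red blood cell list (0.12 and 0.074). Tek, among the 3 most abundant endothelial markers, passed by edgeR as lower in KO as the average over the sexes. Tek was at 20.5 to 29.1 CPM in female KO, against 28 to 40 CPM at most in female Het. In males it was at 32.9 to 55.5 CPM in KO, against 53.1 to 73.2 CPM in Het. Tenocyte markers summed to 104.4 to 122.4 CPM in male KO and 122.8 to 142.9 CPM in male Het, which did not overlap, and the female groups overlapped. Myh7 alone was at 0 in a whole group, male KO. The part of these cells in the differences of the 9 genes was not tested.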

How the data were processed

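RNA of freshly isolated satellite cells was reverse transcribed by Smart-Seq2 and made into libraries with a Tn5 kit, per the labels' protocols. Reads were counted per gene over all exons with featureCounts 2.0.0 and Ensembl annotation 99, per the file headers, and deposited as 1 table of counts for each sex. STAR, Subread, DESeq2 and mm10 are named in the submitters' processing notes. No deposited values are estimated counts in practice. The last column of each table (KO188 and KO255) was recorded under that unit. Both hold whole counts like the other columns, and nothing was rounded. The command in the file headers sets no strand or overlap option, and by default the counter ignores strand and leaves out reads that overlap more than 1 gene.

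Genes passing edgeR's filterByExpr (minimum count 10) were tested with edgeR 4.0.16 (R 4.3.3) by the quasi-likelihood test with TMM scaling and Benjamini-Hochberg adjustment over all genes tested, called at 0.05. Females and males were fitted separately, and the average, the difference and the sexes in 1 fit of 12 libraries. The alternatives were DESeq2's size factors, upper-quartile scaling, no filter beyond 1 count, a minimum count of 30, DESeq2 1.42.0, limma 3.58.1 (voom), the 12-library fit and leaving out each library. Levels per kb were also taken over exonic bases that no other gene model overlaps, an alternative chosen after seeing the data. CPM used TMM factors (0.923 to 1.121) over all 12 libraries. Simulated data with known changes were used to test the scripts. The edgeR p-values rest on the spread between animals within groups, 3 per group, with variance estimates that borrow from other genes. They hold no measure of spread between batches. Libraries held 13042039 to 19273245 counts, and Tfeb, with 29 to 58 counts per library, has the lowest depth.

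The 9 genes and the gene lists were chosen with earlier results of these data known. The rule for naming genes took the 9, every listed gene called in a sex and, in lists without such a gene, the 2 of lowest p. In marker lists it took the 3 most abundant and any called, and it took the 3 genes most like Ctsd. Not every marker it took is printed, and several marker lists are given as sums, medians or signs only. Pax7 is outside the rule. Of 55385 genes 55144 had a symbol. No protein sequences were used here.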

Additional observations from a re-analysis of the deposited data

How the results depend on the processing

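No paired analysis was possible because each animal's number is its own and no number is shared between groups. Genes called in females numbered 319, against 1000 with no filter beyond 1 count and 723 by DESeq2; in males 115, against 375 and 280; as the average 504, against 858 and 843; and for the difference between the sexes 1, against 358 and 238. Of the 9 genes, 2 passed in females with no filter (Ctsd and Map1lc3b) against 1, and 1 in males by DESeq2 (Hexa) against 0; the cause was not tested. Leaving out 1 library, genes called ran from 144 to 1479 in females, 41 to 294 in males, 318 to 931 as the average, 0 to 206 for the difference and 3344 to 4076 for female against male. The 9 genes then gave 0 to 3 calls in females, 0 to 1 in males, 2 in every average fit, 0 for the difference and 3 to 5 for female against male. On leaving out 1 library the sign turned for these log2 changes, none of them called with all libraries. Females: Lamp2 -0.077 to 0.039, Slc17a5 -0.23 to 0.13, Npc2 -0.044 to 0.014. Males: Map1lc3b -0.062 to 0.25, Gabarapl1 -0.0061 to 0.11, Cln6 -0.22 to 0.61, Ctsl -0.35 to 0.034, Atg4d -0.052 to 0.13, Lamp2 -0.083 to 0.0041. Average: Ctsb -0.020 to 0.091, Lamp2 -0.054 to 0.0061, Ctsl -0.11 to 0.084. Difference: Hexa -0.21 to 0.061, Lamp2 -0.042 to 0.072, Lamp1 -0.041 to 0.080, Tfeb -0.084 to 0.22. Ctsd and Hexa passed as the average under every alternative run. No other scaling moved the median of all genes by more than 0.0197 (log2).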
